A study of Mus musculus with 3 samples.

Results

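Transcription factors that mark the midbrain and its border with the hindbrain were followed by RNA-Seq in the rostrum (anterior head) of E9 mouse embryos with 18-22 somites. The 8 genes *En1*, *En2*, *Pax2*, *Pax5*, *Pax8*, *Gbx2*, *Lmx1b* and *Otx1* were chosen by symbol, as regional factors of midbrain and rostral hindbrain, out of the 24062 genes in the count table. *Tuft* embryos were homozygous (*tuft/tuft*) for a nonsense mutation of *Tet1*, which encodes an enzyme that oxidizes methylated cytosine, and showed neural tube defects with curled neural folds. The mutation had arisen spontaneously in the 3H1 colony. Wild-type embryos were of the 3H1 Balb background strain. RNA of 3 embryos per genotype was pooled for library construction. Although 2 *tuft* samples and 1 of wild type are on record, 1 column of counts was analyzed per genotype, here called its library. Whether the *tuft* column holds 1 or both of the samples is not given in the sources used here. No difference below therefore has a replicate check.

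At this stage the neural plate is divided along its length by transcription factors that repress each other. OTX proteins cover forebrain and midbrain, GBX2 covers the rostral hindbrain, and the isthmus forms where they meet. The isthmus secretes FGF8 and WNT1, which pattern the midbrain and cerebellum. PAX2, PAX5 and PAX8, a subfamily with a shared paired domain, together with EN1, EN2 and LMX1B, start and maintain those signals. Several of the factors are also used elsewhere in the embryo, such as *Pax2* in the optic stalk and *Pax2* and *Pax8* in the otic placode.

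TET1 acts on CpG dinucleotides, so the CpG content of the promoters is shown first. RefSeq promoter sequences of GRCm38.p6 matched 6 of the 8 genes, *En2* and *Otx1* being without an entry. The sequences below are the 250 bases before the annotated start, with CpG in capitals. *En1* is shown as the gene with the highest fold change of the 8. *Pax5* and *Pax8* are shown as members of 1 subfamily that differed between genotypes in opposite directions. They lie at chr1:120602237-120602486 on the plus strand, chr4:44710695-44710944 on the minus strand and chr2:24475600-24475849 on the minus strand.
En1: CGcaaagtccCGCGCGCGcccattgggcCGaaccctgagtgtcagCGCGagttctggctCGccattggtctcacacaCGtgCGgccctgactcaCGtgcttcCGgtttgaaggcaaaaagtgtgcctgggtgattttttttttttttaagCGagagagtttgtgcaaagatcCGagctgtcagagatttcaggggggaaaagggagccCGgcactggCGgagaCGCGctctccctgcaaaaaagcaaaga
Pax5: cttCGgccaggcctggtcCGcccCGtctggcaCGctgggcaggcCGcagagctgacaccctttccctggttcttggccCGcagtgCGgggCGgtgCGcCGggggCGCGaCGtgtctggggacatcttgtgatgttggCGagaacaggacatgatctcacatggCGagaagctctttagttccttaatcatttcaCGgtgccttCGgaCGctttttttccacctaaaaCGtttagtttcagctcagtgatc
Pax8: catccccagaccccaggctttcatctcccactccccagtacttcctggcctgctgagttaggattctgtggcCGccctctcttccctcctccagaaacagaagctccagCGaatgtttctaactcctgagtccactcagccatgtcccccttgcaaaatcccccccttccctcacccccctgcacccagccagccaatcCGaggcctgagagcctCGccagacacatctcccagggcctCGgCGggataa
The *En1* and *Pax5* windows each hold 19 CpG, a number that 19.7% of 32851 annotated promoter windows of this length reach. *Lmx1b* also has 19 and *Gbx2* has 18. *Pax8* has 6, which equals the median of all windows. The 3 annotated starts of *Pax2* have 5, 20 and 25. CpG-rich promoters thus occurred among genes that were higher in *tuft* (*En1* and *Lmx1b*) and among genes without a count in *tuft* (*Pax5* and *Gbx2*). Methylation of these promoters was not measured in the data used here.

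The wild-type library held 14251942 counts on genes and the *tuft* library 6433067, a ratio of 2.22. Levels are given as counts per 1000000 counts on genes (CPM). Fold changes are *tuft* over wild type after TMM normalization (a trimmed mean of log ratios), under which 1 count in *tuft* corresponds to 2.91 in wild type. They carry a 95% interval from the counts (Clopper-Pearson), which covers counting error only. Where no read was counted, a limit of 3 counts was set, which is 0.466 CPM in *tuft* and 0.210 CPM in wild type. A fold change against a count of 0 is a bound computed with this limit, and it takes the wild-type count without its counting error. Genes with at least 10 counts in the libraries together were examined, 13979 in all, and 2609 of these had no count in *tuft* whereas 35 had none in wild type. *Tet1* itself had 435 counts in wild type and 32 in *tuft*, a fold change of 0.214 (0.145 to 0.307). In a pool of tissue, fewer cells that express a gene cannot be told apart from less RNA per cell.

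All 8 factors passed the minimum of 10 counts. Of these, 7 differed by 2-fold or more, 5 of them higher (*En1*, *En2*, *Pax8*, *Lmx1b* and *Otx1*) and 2 lower in *tuft* (*Pax2* and *Pax5*). *Gbx2* had no count in *tuft* but too few in wild type for the bound to reach 2-fold. Differences of this size were frequent: 58.9% of all genes examined were past 2-fold, 21.3% higher and 37.5% lower. Among the 10527 genes with mean normalized counts in the range of the factors, 8.50 to 1366, the share was 66.1%. The median log2 fold change of the 8 genes was 1.63 and that of all genes examined was -0.45, with counts at or under 3 set to 3. For 6 of the 8 the whole counting interval lay past 2-fold, as for 47.2% of all genes. For genes without a count in *tuft*, the Clopper-Pearson interval and not the bound was used here. With library totals alone, all log2 fold changes are lower by 0.39, *Otx1* is no longer past 2-fold and *Gbx2* is. Then 4 factors are higher and 3 lower, against 2217 higher and 6427 lower among all genes, where TMM gave 2981 and 5249.

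**Figure D1:**
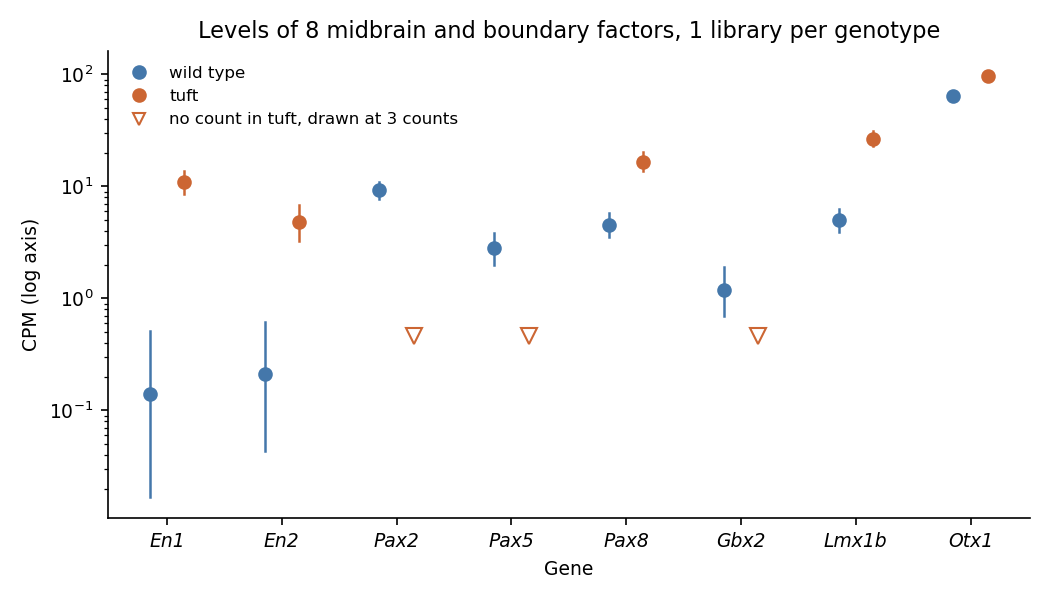
Levels of the 8 factors in CPM (log axis) in the wild-type and the *tuft* library, with exact Poisson 95% intervals as bars. Open triangles mark genes without a count in *tuft*, drawn at 3 counts (0.466 CPM), and *En1* and *En2* are near the bottom in wild type at 0.140 and 0.210 CPM.

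The engrailed genes *En1* and *En2*, homeobox genes expressed across the midbrain-hindbrain junction and needed for midbrain and cerebellum, were almost without counts in wild type. *En1* (chromosome 1 of GRCm38, 120602487 to 120607991) had 2 counts in wild type and 70 in *tuft*, or 0.140 and 10.9 CPM. Its fold change was 102 (27.2 to 858). *En2* (chromosome 5, 28165696 to 28172190) had 3 counts in wild type and 31 in *tuft*, or 0.210 and 4.82 CPM, and a fold change of 30.1 (9.39 to 154). The engrailed genes were thus present in the library with fewer counts on genes and at or under 3 counts in the other. This was an infrequent arrangement. Of the 845 genes with 8.71 to 13.6 CPM in *tuft*, the band of 1.25-fold on either side of *En1*, 17 (2.01%) had at most 3 counts in wild type. In the same band around *En2* there were 14 of 536 (2.61%). Both bands were set after these values had been seen, so the shares only describe the libraries. Neither gene overlaps another annotated gene. *En1* made up 69.3% (59.3 to 78.1) of the engrailed counts in *tuft*, and the 5 engrailed counts of wild type give no usable share.

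The paired-box genes *Pax2*, *Pax5* and *Pax8* follow each other in the boundary region, with *Pax2* the earliest. *Pax2* (chromosome 19, 44746601 to 44838269) had 132 counts, or 9.26 CPM, in wild type and none in *tuft*. It was at least 15.1-fold lower in *tuft*. *Pax5* (chromosome 4, 44524748 to 44710694) had 40 counts, or 2.81 CPM, in wild type and none in *tuft*, at least 4.58-fold lower. *Pax8* (chromosome 2, 24420551 to 24475599) went the other way. It had 65 counts in wild type and 107 in *tuft*, or 4.56 and 16.6 CPM, a fold change of 4.79 (3.49 to 6.63). Within the subfamily *Pax8* held 27.4% (21.8 to 33.6) of the counts in wild type and 100% (96.6 to 100) in *tuft*, where all 107 were its own. This share does not depend on the normalization.

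Genes without a count in *tuft* were frequent at the levels of *Pax2* and *Pax5*. Wild-type levels of 7.41 to 11.6 CPM, the band around *Pax2*, were found for 916 genes, and 194 of them (21.2%) had no count in *tuft*. Around *Pax5*, from 2.25 to 3.51 CPM, 397 of 749 genes (53.0%) had none. These bands, and those around the other genes, were drawn after the values of the genes had been seen. *Pax2* overlaps 2 annotated RNA genes, *Pax5* overlaps 3 and *Pax8* overlaps 1, and whether strand was used in counting is not given in the sources used here. Of these, 5730488B01Rik inside *Pax5* had 27 counts in wild type and none in *tuft*, and 1700039E22Rik inside *Pax2* had 4 and none. The RNA gene Gm13415 shares 24998 bases with *Pax8*, and Gm12462 shares 4694 with *Pax5*. Neither has an entry among the counts.

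**Figure D2:**
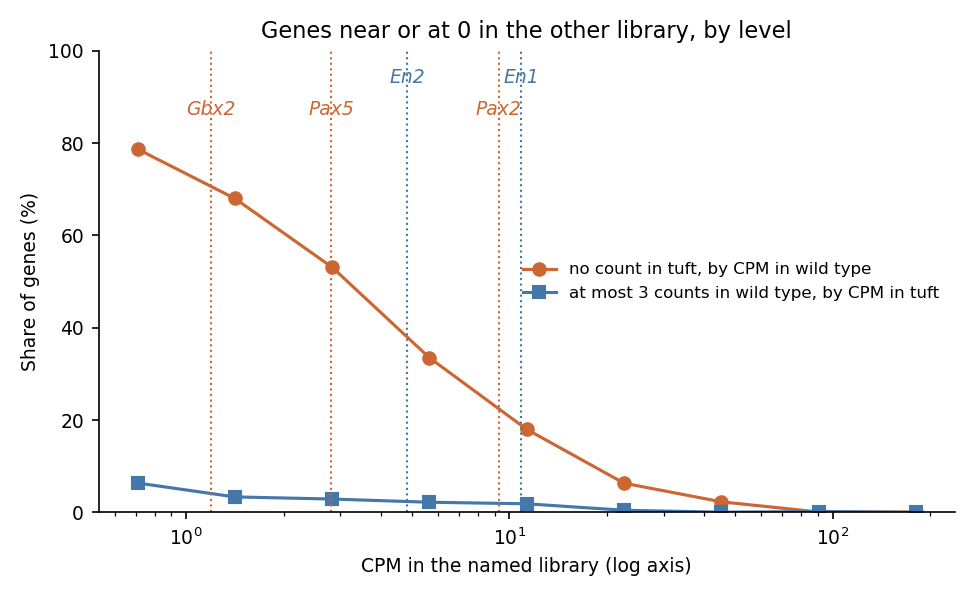
Share of genes (%) with no count in *tuft*, by their CPM in wild type (circles), and with at most 3 counts in wild type, by their CPM in *tuft* (squares), in bins that double in CPM (log axis). Dotted lines mark the levels of *Gbx2*, *Pax5* and *Pax2* in wild type and of *En2* and *En1* in *tuft*. The first share falls from 78.7% at 0.5 to 1 CPM to 18.0% at 8 to 16 CPM, and the second from 6.37% to 1.87%.

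*Gbx2*, the homeobox gene of the rostral hindbrain that opposes *Otx2* across the isthmus, had the fewest counts among the factors. *Gbx2* (chromosome 1, 89927962 to 89931176) had 17 counts, or 1.19 CPM, in wild type and none in *tuft*. With 3 counts allowed in *tuft*, it was at least 1.95-fold lower. In its band, 0.954 to 1.49 CPM, 516 of 713 genes (72.4%) had none in *tuft* either. Why so many genes of this level had no count in *tuft* was not tested. With TMM and the limit of 3 counts, the 17 counts in wild type were too few for a drop past 2-fold to be called.

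*Otx1* and its paralog *Otx2* mark forebrain and midbrain. *Otx1* (chromosome 11, 21994764 to 22001651) was the most abundant of the factors, with 910 counts in wild type and 626 in *tuft*, or 63.9 and 97.3 CPM. Its fold change of 2.00 (1.81 to 2.22) lay at the threshold, and with library totals alone it was 1.52. *Otx1* shares 2086 bases with the RNA gene Gm32517, which has no entry among the counts. *Otx2*, needed for the rostral head to form, had 2104 counts in wild type and 990 in *tuft*, a fold change of 1.37 (1.27 to 1.48). *Otx1* made up 30.2% (28.6 to 31.9) of the *Otx* counts in wild type and 38.7% (36.4 to 41.2) in *tuft*. The intervals of this share cover counting error only. Differences beyond counting error were frequent, since 47.2% of all genes examined had the whole counting interval past 2-fold.

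*Lmx1b*, a LIM-homeobox gene that maintains *Wnt1* and *Fgf8* at the isthmus and is also active in the midbrain floor and roof plate, was higher in *tuft*. *Lmx1b* (chromosome 2, 33560965 to 33641208) had 71 counts in wild type and 172 in *tuft*, or 4.98 and 26.7 CPM. The fold change was 7.05 (5.32 to 9.44). The 16 bases at its 5′ end overlap C130021I20Rik, which had 163 counts in wild type and 45 in *tuft*. *Lmx1b* also shares 811 bases with the RNA gene Gm39790, which has no entry among the counts. The paralog *Lmx1a*, of the roof plate and ventral midbrain, had 164 and 68 counts and was at 1.21 (0.896 to 1.61).

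**Figure D3:**
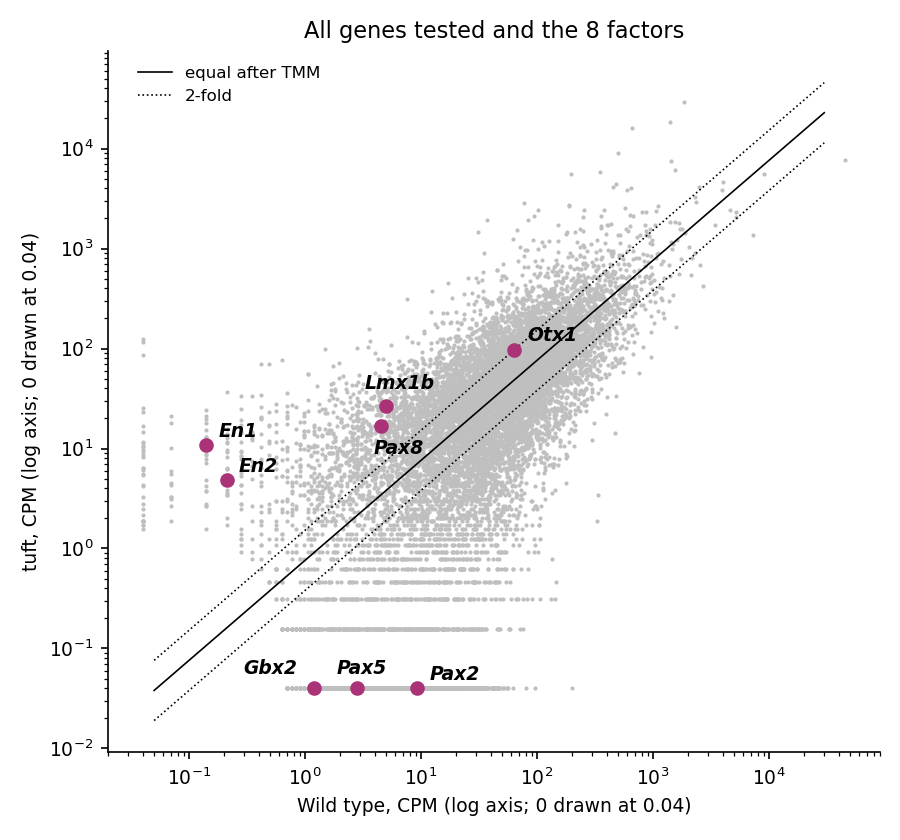
CPM in *tuft* against CPM in wild type (log axes, counts of 0 drawn at 0.04) for the 13979 genes examined (grey) and the 8 factors (purple). The solid line marks equal levels after TMM normalization and the dotted lines mark 2-fold. *En1*, *En2*, *Pax8* and *Lmx1b* lie above the upper dotted line, *Otx1* on it, and *Pax2*, *Pax5* and *Gbx2* on the row of genes without a count in *tuft*.

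Levels were compared between the factors within each library as CPM per kilobase of exon. In wild type, *Otx1* came first with 11.8, followed by *Pax2* with 1.60, *Lmx1b* with 1.03, *Pax5* with 0.820, *Pax8* with 0.751, *Gbx2* with 0.281, *En2* with 0.0422 and *En1* with 0.0357. Neighbours whose Poisson 95% intervals overlapped were *Lmx1b* and *Pax5*, *Pax5* and *Pax8*, and *En2* and *En1*. In *tuft*, *Otx1* was again first with 17.9, followed by *Lmx1b* with 5.52, *En1* with 2.77, *Pax8* with 2.74 and *En2* with 0.967, and only *En1* and *Pax8* overlapped. *Pax2* stood second in wild type and had no count in *tuft*. By these values *En1* stood last in wild type and next after *Lmx1b* in *tuft*, its interval there overlapping that of *Pax8*. Of the counts of all 8 factors, 1240 in wild type and 1006 in *tuft*, *Otx1* held 73.4% (70.8 to 75.8) and 62.2% (59.1 to 65.2). The order depended on the gene model. Per kilobase of the longest transcript, *Pax8* was at 1.35 in wild type and at 4.91 in *tuft*, there ahead of *En1* with 2.77. In wild type *Pax5* was then at 1.09, ahead of *Lmx1b* at 1.04.

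The signals of the isthmus did not differ in 1 direction either. Of 6 genes listed, 5 were examined, with 1 higher and 3 lower in *tuft* and a median log2 fold change of -1.89. *Wnt1*, the signal of the caudal midbrain, had 57 counts in wild type and none in *tuft*, at least 6.52-fold lower. Of the 674 genes in the 1.25-fold band around *Wnt1*, 297 (44.1%) had none in *tuft*. *Fgf8*, the organizing signal of the isthmus and also of the frontonasal region, had 258 counts in wild type and 295 in *tuft*, which gives 3.33 (2.81 to 3.95) as fold change. The related *Fgf17* had 324 and 104, a fold change of 0.935 with an interval that holds 1 (0.742 to 1.17). *Fgf18* had 78 counts in wild type and none in *tuft*, at least 8.93-fold lower, and 35.1% of the 752 genes in the band around its level had none. *Fgf8* made up 39.1% (35.3 to 42.9) of the counts of these FGF genes in wild type and 73.9% (69.3 to 78.2) in *tuft*. *Fgf15*, an FGF gene of the neural tube, had 953 and 88 counts and was at 0.269 (0.214 to 0.335). *Cnpy1*, a modulator of FGF signaling, had no count in either library.

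**Figure D4:**
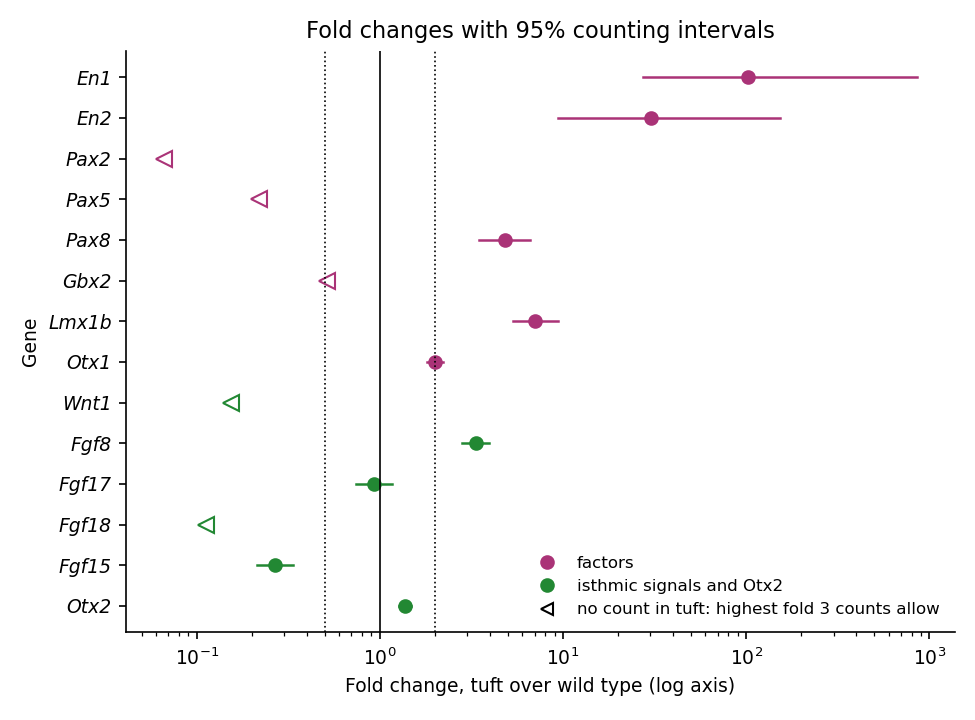
Fold changes of the 8 factors (purple) and of the isthmic signals and *Otx2* (green), *tuft* over wild type (log axis), with 95% counting intervals. Open triangles give the highest fold change that 3 counts in *tuft* allow for genes without a count there, the solid line marks 1 and the dotted lines 0.5 and 2. *En1* is farthest to the right at 102 and *Pax2* farthest to the left at 0.0662.

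Genes that FGF signaling induces were also split, with 2 higher (*Etv1* and *Etv4*) and 2 lower (*Spry1* and *Spry4*) of 8. Their median log2 fold change was -0.34, near that of all genes. The ERK phosphatase gene *Dusp6* had 2333 counts in wild type and 1586 in *tuft*, a fold change of 1.98 (1.86 to 2.11), just under 2-fold. *Il17rd*, an FGF antagonist, had a fold change of 0.726 (0.664 to 0.793). The ETS factor gene *Etv5* was at 0.508 (0.433 to 0.592). Of the protein partners of the factors, such as homeodomain cofactors of engrailed and the Groucho corepressors (TLE), 2 of 8 were higher and 2 lower. The engrailed cofactor gene *Pbx2* was at 0.222 (0.201 to 0.244), with 5801 counts in wild type and 442 in *tuft*, and the corepressor gene *Tle3* at 1.55 (1.46 to 1.64).

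Neighbouring regions of the neural plate were read from lists of their own. Other factors of the midbrain plate had 2 of 6 genes higher (*Dmbx1* and *Sp8*) and 1 lower (*Pax3*). *Sp8*, a regulator of *Fgf8*, had 620 counts in wild type and 562 in *tuft*, a fold change of 2.64 (2.35 to 2.96), and *Meis2*, a TALE homeobox gene, was at 0.883 (0.754 to 1.03). Ventral genes had 2 of 6 higher and 1 lower. *Shh*, the ventral signal, had 294 and 557 counts and was at 5.52 (4.78 to 6.38), and the floor plate factor gene *Foxa2* was at 1.96 (1.55 to 2.46). Forebrain and eye field genes had 2 of 9 higher and 2 lower. *Emx2*, a factor of the dorsal forebrain, was at 6.43 (5.88 to 7.04), *Six3*, which acts in the most rostral plate, at 4.14 (3.81 to 4.50), and the eye field gene *Lhx2* at 1.05 (0.968 to 1.14). The 2 lower genes were *Rax* and *Hesx1*. *Rax*, also of the eye field, had 389 counts in wild type and 2 in *tuft*, a fold change of 0.0150 (0.00181 to 0.0544). *Hesx1* had 36 and none.

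Most hindbrain genes had few counts. Of 10 on the list, *Gbx1*, *Egr2*, *Hoxa2*, *Hoxb1* and *Hoxb2* had at most 10 counts in wild type and none in *tuft*, and 6 were examined. These 6 had 2 genes higher, among them *Irx3*, and 2 lower, among them *Epha4*. *Irx3*, which also marks the diencephalon, had 235 and 301 counts and was at 3.73 (3.13 to 4.44). *Epha4*, a receptor gene of hindbrain segments and other tissues, was at 0.220 (0.170 to 0.281), and *Fgf3* at 1.55 (0.989 to 2.38). The median log2 fold change was -0.50 for the forebrain list and 0.22 for the hindbrain list. The summed levels in CPM, which are not TMM-normalized, went the other way. They went from 518 CPM in wild type to 720 in *tuft* for the forebrain and from 98.8 to 70.6 for the hindbrain. After TMM normalization the ratio of the sums, *tuft* over wild type, was 1.83 for the forebrain and 0.939 for the hindbrain. Of the hindbrain sums *Epha4* alone held 65.0 CPM in wild type and 10.9 in *tuft*, and *Emx2* and *Six3* held 245 and 212 of the 720 CPM of the forebrain list in *tuft*.

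Sites outside the boundary where *Pax2*, *Pax8*, *Gbx2* or *Lmx1b* are known to act gave no common direction. Of 5 genes examined from the otic list, 3 were higher (*Gata3*, *Dlx5* and *Foxi2*, at 5.01, 3.96 and 3.23) and 2 lower (*Tbx1* and *Dlx6*). *Oc90*, which marks the otic epithelium, had 2 counts in wild type and none in *tuft*. Whether the counts of the other genes on this list came from otic cells was not tested. Of the thyroid list, which *Pax8* belongs to at a later stage, *Nkx2-1*, also a gene of the ventral forebrain, was at 7.56 (6.60 to 8.68). *Hhex* had 62 counts in wild type and none in *tuft*, and *Foxe1* was at 1.94 (0.853 to 4.26). Intermediate mesoderm, where *Pax2* and *Pax8* start the kidney, was close to absent, with 56 counts over *Osr1*, *Wt1*, *Ret* and *Lhx1* in wild type and 1 in *tuft*. *Ret*, which also acts outside the kidney, held 42 of the 56.

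Markers of other cell types that a rostrum can hold were read in the same libraries. Their sums are given in CPM, without TMM normalization. After TMM, the ratios of the sums, *tuft* over wild type, were 1.39 for neuroepithelium, 1.70 for surface ectoderm and 2.34 for neural crest. The sum of the neuroepithelial list was 643 CPM in wild type against 677 in *tuft*, with 1 of 6 genes higher and 1 lower, and *Nes*, *Cdh2* and *Sox2* were at 1.79, 1.01 and 0.958. *Fabp7* of this list had no count in *tuft*. Surface ectoderm summed to 596 and 771 CPM, with *Krt8* at 3.14, *Krt18* at 1.93 and *Cdh1* at 0.229. Neural crest summed to 261 and 466 CPM, with 2 of 6 genes higher and 1 lower. In that list *Sox10* was at 11.1, *Twist1* at 3.14 and *Ets1* at 0.638, and *Foxd3* had no count in *tuft*.

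The sums of erythroid, endothelial and yolk sac genes were further apart, at ratios of 14.8, 0.278 and 0.209 after TMM. That of head mesenchyme was at 0.637. Of the 4 erythroid genes 3 were higher, and their sum went from 3159 to 35519 CPM, with *Hba-x* at 17.1, *Hbb-y* at 32.4 and *Hbb-bh1* at 1.08. All 4 endothelial genes were lower, from 233 to 49.3 CPM, with *Cdh5* at 0.341, *Kdr* at 0.275 and *Pecam1* without a count in *tuft*. Of 7 yolk sac genes 5 were lower and 1 higher, from 1718 to 273 CPM, with *Apoa1* at 0.0407, *Cubn* at 0.288, *Afp* at 0.517 and *Apoa4* without a count in *tuft*. Head mesenchyme had 2 of 4 genes lower, from 136 to 65.9 CPM, with *Prrx1* at 1.67, *Alx1* at 0.572, *Pdgfra* at 0.283 and *Prrx2* without a count in *tuft*. The part of these tissues in the values of the 8 factors was not tested.

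**Figure D5:**
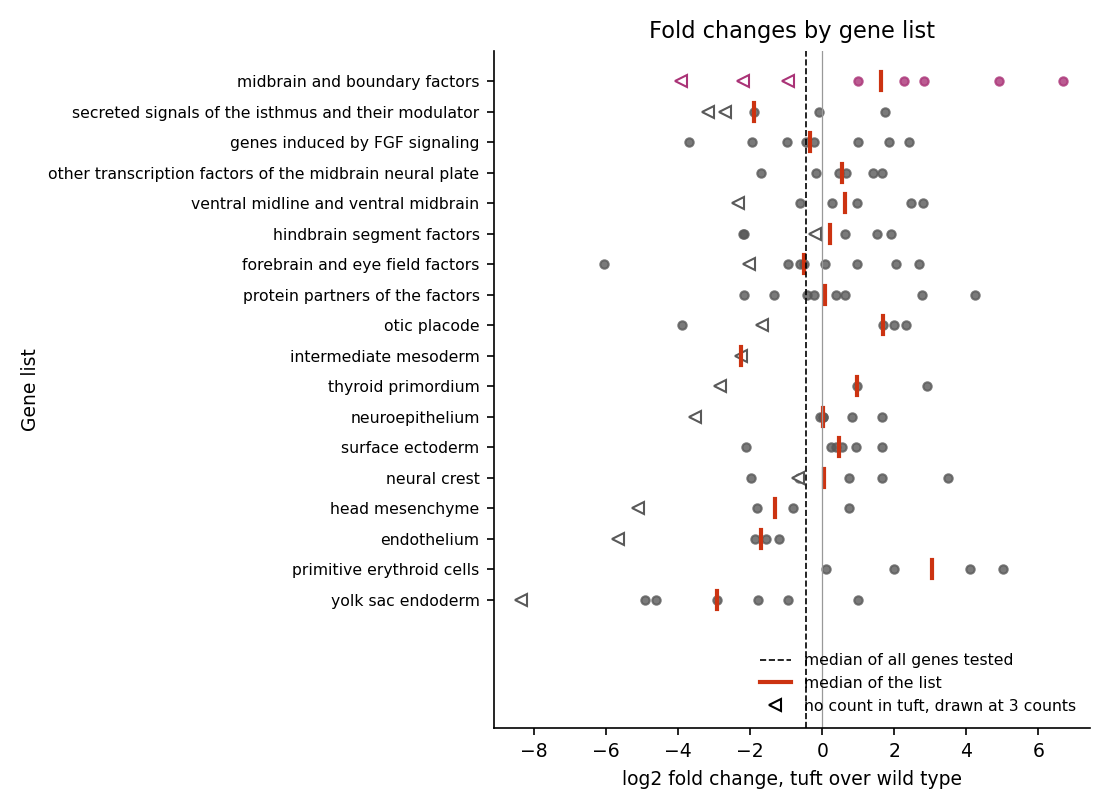
log2 fold changes (*tuft* over wild type) of the genes examined in the 8 factors and in 17 gene lists, 1 point per gene, with the median of each list as a red bar and genes without a count in *tuft* as open triangles drawn at 3 counts. The dashed line is the median of all genes examined, -0.45, and the factors spread from *Pax2* on the left to *En1* on the right.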

How the data were processed

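RNA of the rostrum was pooled from 3 embryos per genotype, poly-A selected and read from a single end with the Ion Proton system. The authors trimmed the reads with PRINSEQ, aligned them to mm10 with Tophat 2.0.14 and Bowtie2 2.2.5, and deposited raw counts per gene symbol from htseq-count. The HTSeq version, overlap mode, strand setting and gene models are not given in the sources used here. Summary lines of htseq-count, 62.7% of all entries in wild type and 72.6% in *tuft*, were kept out of totals. No column of values was left out, and columns were assigned to genotypes by name.

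A quasi-likelihood test in edgeR needs replicates, and 1 column of counts per genotype was analyzed. NOISeq-sim, the program named in the methods, draws simulated libraries and was not run. Instead TMM factors were computed with edgeR 4.0.16 in R 4.3.3, ratios and Clopper-Pearson intervals with scipy 1.17.1 and numpy 2.4.6, and 2-fold was used to count genes (at least 10 counts in both libraries together). No p-value is given. The steps were tested on simulated counts with counting error only, in which far fewer genes differed than in these libraries. The 8 genes and 17 lists were chosen with earlier results of these data known. Genes named were the 8 factors, *Tet1*, the isthmic signals, *Otx2* and the 3 genes with the highest mean normalized count of each other list. Some genes that this rule selects are not reported here. Any further gene is named because of its call or its zero count, thus with its values known.

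Positions are from RefSeq genes of GRCm38.p6, the build of mm10, in which 22547 of the 24062 symbols were found. Exon lengths are from the GENCODE models of NCBIM37, of which no coordinate is used. Alternatives were DESeq2 1.42.0 size factors, library totals, the upper quartile, leaving out *Rn45s*, other fold thresholds and count minima, 0.5 added to both counts, and the longest transcript as length.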

Additional observations from a re-analysis of the deposited data

How the results depend on the processing

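With 1 column of counts per genotype, no replicate could be left out. No paired analysis was possible because the genotypes have 1 column each. For the 5 factors with a count in *tuft*, 24 of 25 fold changes under the other normalizations and with 0.5 added to both counts lay within the reported counting interval. The exception was *Otx1*, at 1.52 with library totals alone. For the 3 without a count, the other normalizations moved the bound by under 1.5 times. With 0.5 added in place of the limit of 3 counts, the ratio went from 0.0662 to 0.0110 for *Pax2*, from 0.218 to 0.0360 for *Pax5* and from 0.514 to 0.0832 for *Gbx2*, values set by the added count. No direction was reversed. *Otx1* was also under 2-fold with the upper quartile, where the bound of *Gbx2* passed 2-fold. The number of factors past 2-fold ranged from 6, for the whole counting interval or at 3-fold, to 8 at 1.5-fold. In each of these alternatives *En1*, *En2*, *Pax8* and *Lmx1b* were higher and *Pax2* and *Pax5* lower. Among all genes the number was 8230, from 5663 at 3-fold to 10474 at 1.5-fold, and 8644 with library totals alone. Higher genes were 36.2% of those past 2-fold with TMM and 25.6% with library totals, and among the factors 71.4% and 57.1%. Over the 17 lists together, 56 genes were past 2-fold, and 60 with DESeq2's size factors. The count of a list moved by over 1.5 times in 1 of 68 cases, neural crest with library totals (from 3 to 5). Per kilobase of the longest transcript, the level of *Pax2* was 1.94 CPM in wild type and that of *Pax8* was 1.35 in wild type and 4.91 in *tuft*. The bound of *Gbx2* is limited by its low count in wild type, and for *En1* and *En2* the 2 and 3 counts in wild type set the width of the intervals. The spread between embryos is not in these data.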
